A study of Mus musculus with 6 samples.

Results

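Fatty acid uptake, activation and storage were described in the kidneys of *Pkd1* mutant mice through 10 genes, *Cd36*, *Slc27a1*, *Slc27a2*, *Slc27a4*, *Acsl1*, *Fabp3*, *Fabp4*, *Lpl*, *Plin2* and *Vldlr*. They were chosen by symbol, for the roles of their proteins, and with earlier results of these data known. All 10 were found, out of 23276 gene symbols, in 26 of the 54721 transcript rows of the deposited table. Total kidney RNA was sequenced from 6 kidneys at postnatal day 22. Of these, 3 were labelled KspCre; Pkd1 F/RC (SKO) and 3 carried in addition miR17~92 F/F (DKO). KspCre is a Cre recombinase driven in renal tubules, so cells outside the tubule were not targeted, and all 6 kidneys carried the KspCre transgene, a floxed *Pkd1* allele and the hypomorphic RC allele. The design sets DKO against SKO kidneys, to ask what the loss of the miR-17∼92 cluster changes in a cystic kidney.

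The table gives 1 mean abundance a transcript, as log2 CPM, the read count scaled to a common library total. It was taken as the mean over the 6 kidneys, although the column names no sample. The columns beside it hold the authors' own comparison of the groups and were not used here. On that reading the levels below are the authors' means over both groups together, with no SD and no test. They describe which of these genes the mutant kidneys express and how strongly, and they hold no difference between DKO and SKO. Whether 2 genes differ beyond the spread between kidneys cannot be told from them. In whole-kidney RNA a low level can come from few cells of a type or from little RNA in each cell, and these cannot be told apart.

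Long-chain fatty acids reach kidney cells from lipoproteins, after hydrolysis of their triglycerides in the capillary lumen, or bound to albumin. They cross the membrane with the help of translocases and transport proteins, are bound in the cytosol by small carrier proteins, and are activated to acyl-CoA esters before they enter oxidation in mitochondria and peroxisomes or are esterified and stored in lipid droplets. The proximal tubule is known for its reliance on fatty acid oxidation, and many genes of this route are textbook targets of the PPAR nuclear receptors.

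The labelled tissue was checked first. The 6 proximal tubule markers had 81.8 to 1030 CPM, with *Slc34a1*, the sodium phosphate cotransporter, as the highest. *Umod*, the uromodulin gene of the thick ascending limb, had 1022 CPM. Markers of skeletal muscle (0 of 4 at 1 CPM or more), cardiac muscle (0 of 2) and adrenal cortex (0 of 3) were all under 1 CPM. The 3 liver markers were above it, with 18.2 CPM for *Ttr*, 13.4 for *Alb* and 3.42 for *Apob*, as were the red cell genes *Hba-a1* with 72.9 and *Alas2* with 20.1 CPM. *Pkd1* itself had a mean of 31.8 CPM and *Mir17hg*, the host transcript of the cluster, 4.21 CPM. A mean over both groups cannot check the genotype labels.

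The cluster floxed in DKO mice encodes miRNAs of 4 seed families. Their mature sequences (RefSeq, GRCm38.p6, chromosome 14, forward strand) are shown because the seed, bases 2 to 8 in capitals, defines the letters that were sought in the 10 genes.
miR-17-5p: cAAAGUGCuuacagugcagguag
miR-20a-5p: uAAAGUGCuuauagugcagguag
miR-18a-5p: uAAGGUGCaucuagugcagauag
miR-19a-3p: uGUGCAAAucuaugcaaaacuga
miR-19b-3p: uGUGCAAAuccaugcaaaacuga
miR-92a-3p: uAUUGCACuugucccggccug

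The seed of miR-17 and miR-20a is the same, as is that of miR-19a and miR-19b, and miR-18a differs from miR-17 within the seed. The complement of each seed was sought on the transcript strand only, in the 3′-UTR of the GENCODE transcript that matches each gene's highest RefSeq row. The match for miR-17 and miR-20a is GCACTTT, that for miR-18a GCACCTT, that for miR-19 TTTGCAC and that for miR-92a GTGCAAT. A 3′-UTR was found for 18916 of the 23276 genes. The 3′-UTRs of the 10 genes ran from 238 nt (*Fabp3*) to 5091 nt (*Vldlr*), with a median of 991.5 nt against 785.5 nt over all genes.

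Of the 10 genes, 4 held a match of any family, against 26.4% of all 3′-UTRs. *Vldlr* and *Cd36* matched miR-17 and miR-20a, a match found in 11.0% of all 3′-UTRs. *Acsl1* matched miR-19 (10.03% of all) and *Slc27a4* matched miR-18a (7.21% of all). No match to miR-92a (5.98% of all) was found. *Slc27a1*, *Slc27a2*, *Fabp3*, *Fabp4*, *Lpl* and *Plin2* held none of the 4. The genes with a match had 3′-UTRs of 1334 to 5091 nt. Those without one had 238 to 649 nt, apart from *Lpl*, whose 2428 nt was the second longest of the 10. The part of 3′-UTR length in these matches was not tested.

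Each match is shown in a window of 30 bases on the transcript strand, with the match in capitals, so that the bases that would face the rest of the miRNA can be read. All lie in the last exon of the gene's transcript (mm10, GENCODE M21).
*Cd36* (chr5:17783083-17783112, reverse strand): caatattttttaataaaatcttGCACTTTt
*Vldlr*, first match (chr19:27249385-27249414, forward strand): attgccatctctggccaaatatGCACTTTc
*Vldlr*, second match (chr19:27249502-27249531, forward strand): agagaacaatcactattcttaaGCACTTTg
*Acsl1* (chr8:46535815-46535844, forward strand): gtgttattgaagcacaactgggTTTGCACt
*Slc27a4* (chr2:29816887-29816916, forward strand): gcacccgggctgagactgacagGCACCTTt

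In *Vldlr* the matches began 267 and 384 nt after the stop codon, and the 3′-UTR of a shorter RefSeq transcript, of 722 nt, also held 2. In *Cd36* the match began at position 260 of 1334 nt and the transcripts of all 5 RefSeq rows held 1 such match. The match in *Acsl1* began at position 1357 of 1571 nt, near the 3′ end, and that in *Slc27a4* at position 1176 of 1789 nt. None of the 5 matches was followed by an A, the letter opposite the first base of the miRNA in the strongest class of sites. A match of letters is a description of the annotated sequence and not a site shown to bind. The pooled means carry no value for single groups, so no level with and without the cluster was set beside these sequences.

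**Figure D1:**
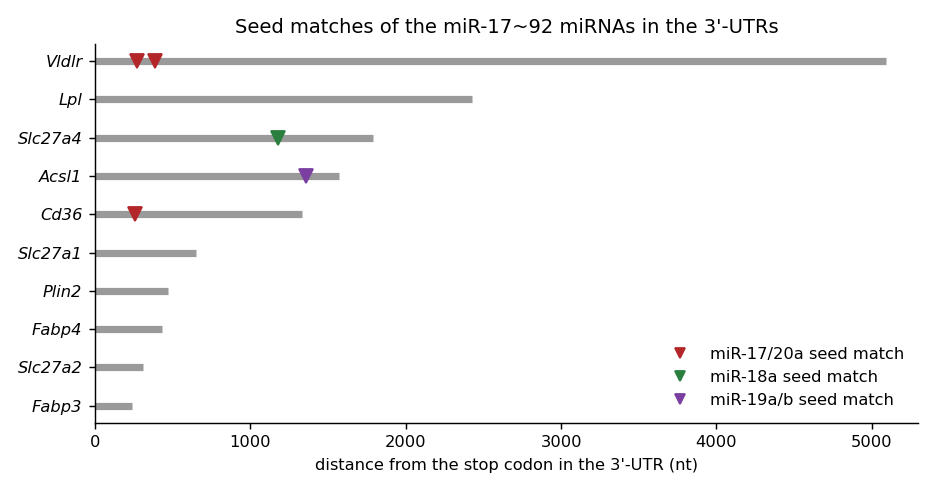
The 3′-UTRs of the 10 genes (y axis, ordered by length) drawn to scale from the stop codon (x axis, nt), with triangles at seed matches coloured by miRNA family. *Vldlr* has 2 matches to miR-17 and miR-20a, at 267 and 384 nt, within the first part of its 5091 nt, and 6 of the genes have no match.

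All 10 genes were expressed, each with at least 10 CPM in its highest row. Their median was 73.3 CPM, against 2.36 CPM over all 23276 genes. The percentile of a gene among all genes ran from 76.3 for *Plin2* to 99.9 for *Slc27a2*, with a median of 95.9. For comparison, 13001 of the 23276 genes had at least 1 CPM and 7501 at least 10 CPM. Among the genes with at least 1 CPM, *Plin2* stood at the percentile 57.5 and the median of the 10 was 92.6.

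**Figure D2:**
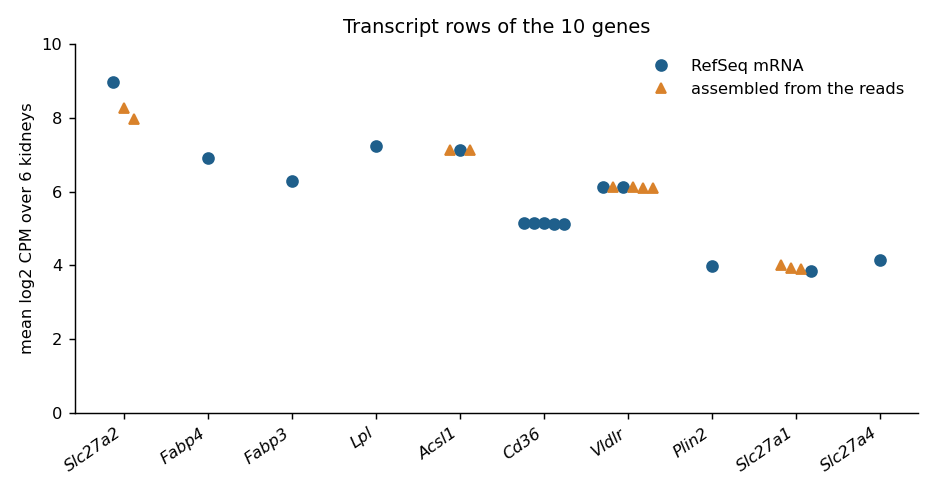
Mean log2 CPM (y axis) of each of the 26 transcript rows, grouped by gene (x axis, ordered by level per transcript length). Circles are RefSeq mRNA rows and triangles are transcripts assembled from the reads. The rows of *Cd36*, *Vldlr* and *Acsl1* nearly coincide, whereas those of *Slc27a2* span from 7.97 to 8.96.

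*Slc27a2* encodes FATP2, a transport protein with very-long-chain acyl-CoA synthetase activity, and was the most abundant of the 10 genes. It lies on the forward strand at chr2:126552407-126588243 (mm10) and its RefSeq row, NM_011978, had a mean log2 CPM of 8.96, or 499.5 CPM. By CPM it stood at rank 32 from the top of the 23276 genes, and per kilobase of transcript at the percentile 99.5 of the 20167 genes with a length. Its other rows, both assembled from the reads, had 304.6 and 251.6 CPM, which is 39.0% and 49.6% below the RefSeq row. No other gene of the 10 had rows so far apart.

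The other transport proteins were far less abundant. *Slc27a4* (chr2:29802634-29817522, forward strand), which encodes FATP4, had a single row with 17.8 CPM. *Slc27a1* (chr8:71568882-71587302, forward strand), which encodes FATP1, a transporter best known from muscle and fat, had 4 rows between 14.3 and 16.2 CPM, and its RefSeq row was the lowest of them. *Cd36* (chr5:17781690-17888801, reverse strand), the fatty acid translocase, had 5 RefSeq rows, of which the highest had 35.3 CPM and the lowest was 1.014% below it. The 5 rows match GENCODE transcripts of 2677 to 3399 nt with the same coding length of 1416 nt, and each of these holds 1 match to the miR-17 seed. The rows NM_001159555 and NM_007643 match the same transcript and have the same level, so they are not separate observations.

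*Lpl* and *Vldlr* belong to the delivery of fatty acids from lipoproteins. Lipoprotein lipase, the product of *Lpl* (chr8:68880491-68907448, forward strand), hydrolyses the triglycerides of lipoproteins in the capillary lumen. Its single row had 149.6 CPM, the second highest value among the 10 genes before length is considered. *Vldlr* (chr19:27216484-27254231, forward strand), the receptor for very low density lipoprotein, had 6 rows from 68.9 to 69.3 CPM.

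The RefSeq rows of *Vldlr* match annotated transcripts of unequal length. NM_013703 matches a transcript of 7971 nt in 19 exons and NM_001161420 one of 3855 nt in 18 exons. The shorter one lacks 84 coding nucleotides and has a 3′-UTR of 722 nt in place of 5091 nt, and each of the pair holds 2 matches to the miR-17 seed. Despite this gap in annotated length, the shorter row had a level only 0.320% lower than the longer one. The length of the models that the authors counted on is not in the table.

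*Acsl1* (chr8:46471037-46536051, forward strand) encodes a long-chain acyl-CoA synthetase, which activates fatty acids for oxidation or esterification. It had 3 rows that differed by at most 0.204%, at 138.9 to 139.1 CPM. The cytosolic carriers *Fabp4* (chr3:10204088-10208576, reverse strand) and *Fabp3* (chr4:130308595-130315463, forward strand) had 1 row each, with 120.3 and 77.2 CPM. *Fabp4* is the adipocyte and macrophage form, also found in capillary endothelium, and *Fabp3* is the form of heart and muscle. The annotation lists a pseudogene of *Fabp3*, *Fabp3-ps1*, and reads that fit both places equally well cannot be assigned to one of them. *Plin2* (chr4:86648386-86670060, reverse strand), the coat protein of lipid droplets in most tissues, had 1 row with 15.9 CPM, the lowest level before length is considered.

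**Figure D3:**
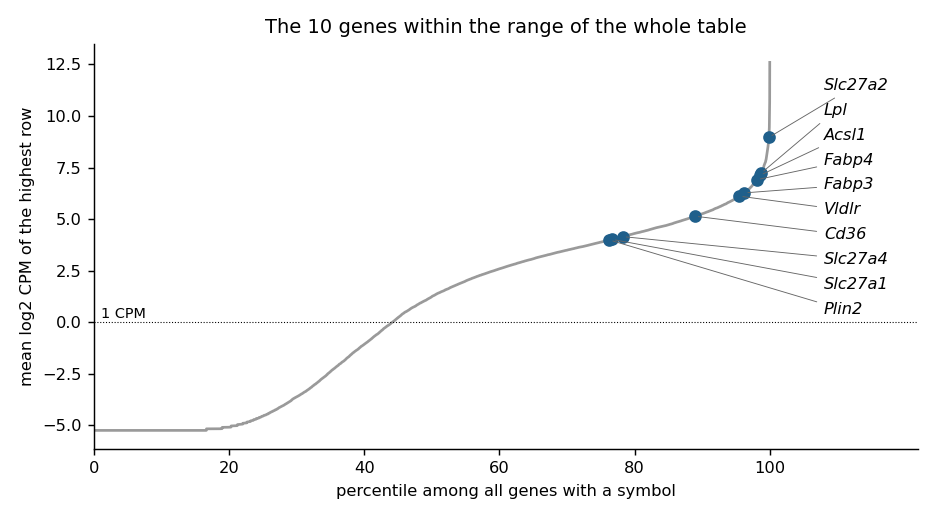
Mean log2 CPM of the highest row of every gene (y axis) against its percentile among the 23276 genes with a symbol (x axis, grey line), with the 10 genes as labelled points and 1 CPM as a dotted line. *Slc27a2* sits near the top of the range, and *Plin2*, *Slc27a1* and *Slc27a4* sit lowest of the 10, between the percentiles 76.3 and 78.2.

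Levels of different genes can only be set side by side per length, since a longer transcript yields more reads. Each RefSeq row was therefore divided by the length of its GENCODE transcript, which ran from 823 nt for *Fabp3* to 7971 nt for *Vldlr*. On this scale the median of the 10 genes was 23.7 CPM per kilobase, against 1.404 over the 20167 genes with a length. *Slc27a2* was highest at 171.2 CPM per kilobase and *Slc27a4* lowest at 4.38, a ratio of 39.0. Among the 20167 genes with a length, the percentile per kilobase ran from 70.6 for *Slc27a4* to 99.5 for *Slc27a2*. That of *Vldlr* was 84.0, against 95.5 by CPM, and that of *Plin2* was 83.5, against 76.3 by CPM.

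Between these ends the genes fell into steps. The short transcripts of the carriers placed *Fabp4* at 134.2 and *Fabp3* at 93.9 CPM per kilobase, above *Lpl* at 36.4, which has the higher level before division by length. The place of *Fabp4* depends on the transcript chosen, since its longest annotated form gives 28.4 CPM per kilobase, below both *Fabp3* and *Lpl*. *Acsl1*, at 35.6, was within 1.02-fold of *Lpl*. *Cd36* followed at 11.7, *Vldlr* at 8.69, *Plin2* at 8.42 and *Slc27a1* at 5.10 CPM per kilobase. The widest gap between neighbours in this order was 3.04-fold, between *Acsl1* and *Cd36*, and the narrowest was that of *Lpl* and *Acsl1*. With the shorter transcript of *Vldlr* its level was 17.9 CPM per kilobase, and it then stood above *Cd36*, at 13.1 with its own shortest RefSeq transcript.

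**Figure D4:**
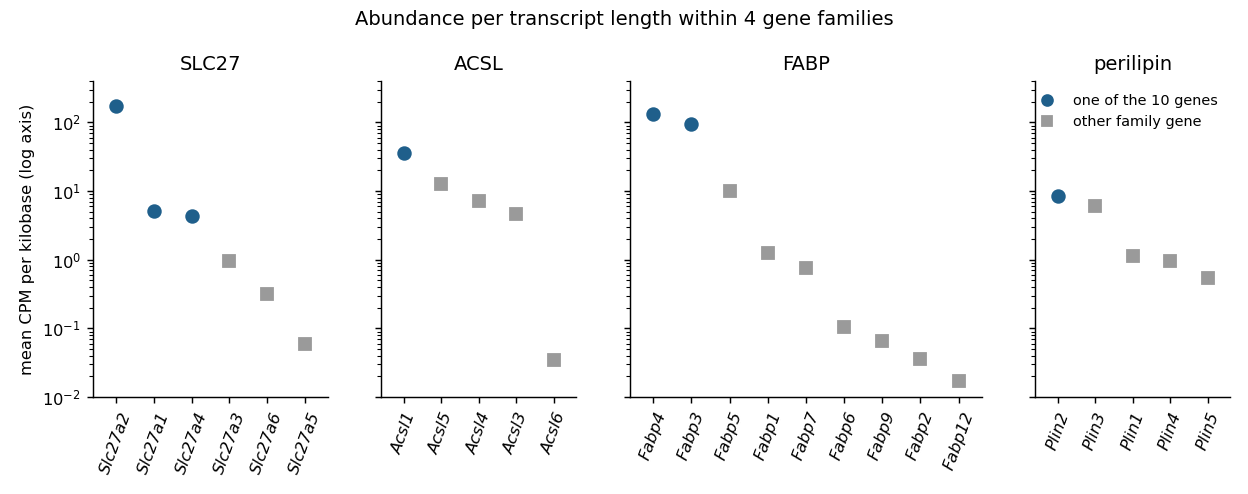
Mean CPM per kilobase of transcript (y axis, logarithmic) for the measured genes of the SLC27, ACSL, FABP and perilipin families (x axis), ordered by level. Blue circles are genes of the 10 and grey squares are their relatives. In each family the highest gene is one of the 10, from *Slc27a2* at 171.2 down to *Plin2* at 8.42.

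Within each of 4 gene families, one of the 10 genes had the highest level per length. The 10 genes were chosen with earlier results of these data known, so this is a description and not a test. *Slc27a2* accounted for 94.1% of the summed CPM per kilobase of 6 SLC27 genes, and *Slc27a1* and *Slc27a4* for 2.80% and 2.41%. The relatives *Slc27a3*, *Slc27a6* and *Slc27a5* had 0.956, 0.317 and 0.0595 CPM per kilobase. *Slc27a5*, the bile acyl-CoA synthetase of liver, had the lowest level of the family.

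*Fabp4* and *Fabp3* together held most of the FABP family, with 55.9% and 39.1% of the sum over 9 genes. *Fabp5*, the epidermal form, had 9.96 CPM per kilobase. *Fabp1*, the liver form, had 1.26 CPM per kilobase and only 0.695 CPM, and the intestinal *Fabp2* had 0.0351 CPM, close to the lowest value the table holds, 0.0263 CPM.

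*Acsl1* held 59.2% of the sum over 5 ACSL genes, ahead of *Acsl5* with 12.6 and *Acsl4* with 7.28 CPM per kilobase. *Acsl6*, known from brain, had 0.0897 CPM. Among the 5 perilipins the share of *Plin2* was 49.4% and that of *Plin3*, which coats nascent droplets, 35.2%. Before division by length *Plin3* was above *Plin2*, with 21.9 against 15.9 CPM, so the order of these perilipins depends on the length correction. The adipocyte perilipin *Plin1* had 1.12 and *Plin5*, the form of oxidative tissues, 0.543 CPM per kilobase.

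A wider list of 62 other genes of fatty acid handling was examined, of which 61 were found. Their median was 9.04 CPM and 3.70 CPM per kilobase, and 47 of the 61 had at least 1 CPM. The highest per length was *Apoe*, the apolipoprotein E gene, at 270.7 CPM per kilobase. *Dbi*, which encodes the acyl-CoA binding protein, had 243.5, and *Acsm2*, a medium-chain acyl-CoA synthetase, 204.5 CPM per kilobase. *Acot13*, an acyl-CoA thioesterase, and *Got2*, the mitochondrial aspartate aminotransferase also described as a membrane fatty acid binding protein, followed with 74.5 and 59.3 CPM per kilobase. Per kilobase *Apoe*, *Dbi* and *Acsm2* were above *Slc27a2*, whereas before division by length all 3 were below its 499.5 CPM, at 381.2, 138.5 and 419.4 CPM.

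The partners of *Lpl* were less abundant per length than the lipase itself. *Gpihbp1*, which anchors lipoprotein lipase on capillary endothelium, had 8.85 CPM per kilobase against 36.4 for *Lpl*, and *Lmf1*, needed for maturation of the lipase, had 3.89. *Angptl4*, an inhibitor of the lipase, had 3.70 CPM per kilobase. *Lipc*, the hepatic lipase, had 0.192 CPM. Partners in storage lay on both sides of *Plin2*, at 8.42 CPM per kilobase. The acyltransferase *Dgat2* had 15.3, the triglyceride lipase *Pnpla2* 16.0 and its inhibitor *G0s2* 20.2 CPM per kilobase, all above *Plin2*. The acyltransferase *Dgat1* had 4.02 and *Abhd5*, the activator of the lipase, 4.88 CPM per kilobase.

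Because *Fabp4*, *Lpl*, *Cd36* and *Plin2* are also genes of adipocytes, markers of fat were read beside them. Of 6 adipocyte markers, 4 had at least 1 CPM, and the 6 summed to 26.0 CPM. *Cfd*, the adipsin gene, was the highest of them with 12.2 CPM, or 13.2 CPM per kilobase. *Adipoq* had 4.51, *Cidec* 2.64 and *Plin1* 1.12 CPM per kilobase, compared with 134.2 for *Fabp4*. *Lep* and *Retn* had 0.873 and 0.499 CPM. All 4 endothelial markers were expressed, with 27.0 to 60.2 CPM and a sum of 184.1 CPM. Per kilobase *Emcn* had 23.3, *Pecam1* 16.1, *Cdh5* 11.1 and *Kdr* 4.15 CPM. The sums of the adipocyte and endothelial lists take no account of length and cannot be set side by side. Of the macrophage markers, *Csf1r* had 25.3 and *Cd68* 5.19 CPM, and *Adgre1* was not found under that symbol. Skeletal muscle markers, read beside *Fabp3* and *Slc27a1*, reached at most 0.427 CPM. The part of these cell types in the levels of the 10 genes was not tested.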

How the data were processed

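Total RNA of 6 mouse kidneys (3 SKO, 3 DKO) was sequenced from strand-specific libraries. Alignment of quality-trimmed reads to mm10 was done by the authors with TopHat (2.0.12) and the iGenomes annotation, keeping mapping quality of at least 10. The submitters' processing notes also name Cufflinks, featureCounts (Subread 1.4.6) and edgeR (3.2.4). The deposited values used here are 1 average abundance a transcript row over all libraries, given as log2 CPM. Mean log2 CPM stands for this value throughout, and CPM is the same value taken off the log scale. The prior count and library scaling are not given in the sources used here. The other 4 value columns hold the authors' log2 fold change, likelihood ratio, p-value and adjusted p-value. They were not used. The planned test of DKO against SKO was not run, because no value of a single kidney is in the table. Depth per kidney is unknown, so no interval was set.

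The CPM of all rows sum to 1007270 and those of 1 row a gene to 370295. Each CPM, and the thresholds of 1 and 10 CPM, are therefore relative to the total over all rows. Reads shared between rows can be counted again in that total. Of 8470 genes with several rows and at least 1 CPM, 23.9% had rows within 1% of each other, and the median ratio of the highest to the lowest row was 1.12. Rows of a gene can share reads and were not treated as replicates. A gene was represented by its highest row. CPM per kilobase used the highest RefSeq mRNA row with a transcript in GENCODE M21 (GRCm38, the assembly of mm10). The 10 genes and all lists were chosen with earlier results of these data known. The text names all 10, the 5 highest of the other pathway genes per length, relatives within families and marker genes. Genes named for partner roles were chosen after their values were seen. Ranking and seed search were tested on simulated data. Python 3.11.15, numpy 2.4.6, pandas 2.3.3 and matplotlib 3.10.9 were used.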

Additional observations from a re-analysis of the deposited data

How the results depend on the processing

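A value was counted as moved when it changed by more than 1.5-fold, since the pooled means have no spread. Summing CPM over all rows of a gene moved the median of the 10 genes from 73.3 to 135.0 CPM and from 23.7 to 55.1 CPM per kilobase, and moved the 5 genes with several rows. By construction this sum counts shared reads again in each row. The highest RefSeq mRNA row, the longest transcript, a background of genes with at least 1 CPM, percentiles per kilobase and a threshold of 10 CPM left the medians and counts within 1.5-fold. For percentiles, which are bounded above, this rule can hardly be exceeded. Against genes with at least 1 CPM the percentile of *Plin2* fell from 76.3 to 57.5. That of *Slc27a1* fell from 76.6 to 58.2 and that of *Slc27a4* from 78.2 to 61.0. The longest transcript moved the level of *Fabp4* alone, to 28.4 CPM per kilobase and from rank 2 to rank 4 of the 10, because the longest *Fabp4* transcript is a retained-intron form of 4231 nt. The shortest RefSeq transcript was chosen after seeing the data and moved *Vldlr* alone. *Slc27a2* ranked first and *Slc27a4* last per kilobase under every choice of length and with the sum, whereas without length *Plin2* ranked last. The order between these ends was less stable. With the sum *Lpl* went from rank 4 to rank 7 and *Acsl1* from rank 5 to rank 3. Without length *Fabp4* went from rank 2 to 4, *Fabp3* from 3 to 5, *Lpl* from 4 to 2 and *Acsl1* from 5 to 3. Requiring an A after the seed match reduced the genes with a match to 0 for miR-17 and miR-20a, to 0 for miR-18a and to 0 for miR-19. The longest 3′-UTRs gave the same counts. No paired analysis was possible because only means over all kidneys were given. For the same reason DESeq2, a fit with no count filter and the omission of each kidney in turn were not run.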
